A study of Homo sapiens with 204 samples.

Results

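RPS7 is a protein of the small (40S) ribosomal subunit, and its knockdown in A549 cells was compared with control cells through mRNA amounts, ribosome footprints and their ratio. The knockdown holds 4 samples, 2 RNA-seq and 2 Ribo-seq libraries named RPS7 1 and RPS7 2, of 204 samples in all, chosen by the target in their titles and their columns in the count tables. A549 cells come from a human adenocarcinoma of the lung and keep wild-type p53. The knockdown cells received small interfering RNA (siRNA) against RPS7 at 40 nM for 24 h with the reagent RNAiMAX, and the control cells received non-targeting siRNA at the same dose and time. All cells were given cycloheximide, which holds ribosomes on mRNA, at 100 µg/ml for 5 min before lysis, and each lysate was divided between RNA-seq and Ribo-seq of gel-selected footprints of 28 to 30 nt. The reference is 6 control lysates whose titles or columns carry a sample number (11_1, 11_2, 20_1, 20_2, 21_1 and 21_2). Knockdowns of 11 other small-subunit proteins made in the same way (22 lysates) gave a second comparison. The labels give no siRNA sequence and set no second RPS7 siRNA apart, so the loss of RPS7 and other effects of the siRNA cannot be told apart. The design text calls the repeats biological replicates of 1 line without saying that they were separate cultures, so the p-values reflect only how these libraries vary, and some of that may be technical.

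Ribosomal proteins are made in equal numbers and assembled on rRNA in the nucleolus. When assembly fails, unassembled ribosomal proteins bind MDM2, the ubiquitin ligase that holds p53 low, and p53 target genes are induced. RPS7 is among the proteins that were found to bind MDM2, it acts in the early processing of the small-subunit rRNA, and mutations in it are a cause of Diamond-Blackfan anaemia. The mRNAs of ribosomal proteins start with a 5′-terminal oligopyrimidine (TOP) stretch, through which their translation is regulated as a group.

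Depth of the 8 libraries ran from 30.7 to 42.5 M counts in RNA-seq and from 10.8 to 41.9 M counts in Ribo-seq, with RPS7 2 the shallowest Ribo-seq library. A count of 0 in that library allows up to 0.278 CPM (reads of a gene per M reads counted), from 3 counts and for counting error only. In RNA-seq, RPS7 2 and control 20_2 stood apart from their partners. The SD over genes of the log2 difference between both libraries of a group was 0.482 for RPS7 and 0.582 for controls 20, against 0.0956 to 0.266 for 17 other pairs. Both differences ran in 1 direction across 9901 genes (r = 0.762, a description across genes, which are not independent), and both were lower for genes with a longer span (r = -0.379 and -0.421 over the 9476 genes with a length). In Ribo-seq the RPS7 pair had an SD of 0.190 and the controls 20 pair 0.158, within the 0.137 to 0.351 of the other pairs. Libraries also separated by the sample number in their titles. RPS7 carries number 13, and of the controls only 20_1 and 20_2 lie in the same range, 13 to 20. Results are therefore given against all 6 controls. For many of them a within-range value is added, against controls 20_1 and 20_2 from a fit with the number range as a term, or the value without both libraries that stand apart. The latter fit leaves RPS7 2 and control 20_2 out of both assays, although neither stood apart in Ribo-seq. It keeps 1 RPS7 library, so its calls and counts cannot be set level with those of the full fit. The library preparation behind the differences between libraries is not given in the sources used here, and its part in the results was not tested. Of 11 lung epithelial and A549 markers tested, 3 were higher and none lower in RPS7 knockdown (median 0.38), beside 8.54% of all genes tested that were higher, and within the range 1 was higher and 2 lower (median 0.04). ALDH3A1, an aldehyde dehydrogenase, rose by 0.92 ± 0.25 (within-range 0.31, adjusted p = 0.0709), its relative ALDH1A1 by 0.38 ± 0.10, and CPS1, a carbamoyl phosphate synthetase, by 0.76 ± 0.18 (within-range 0.35, adjusted p = 0.056). The summed level of the list was 12709 and 13473 CPM in RPS7 knockdown and 7951 to 12916 CPM in controls, and its part in the results was not tested. Keratin KRT18 had 1631 to 1683 CPM in RPS7 knockdown and 859 to 2145 CPM in control cells. The leukocyte marker PTPRC and the fibroblast marker DCN had 0 counts in all 8 libraries, and the alveolar marker SFTPB also had 0 counts. Of the 10 fibroblast and endothelial markers, 9 stayed under 1 CPM in all 8 libraries.

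RPS7 itself was reduced in both knockdown libraries of both assays. RPS7 mRNA had 26.5 and 37.4 CPM in the RPS7 libraries, against 528 to 604 CPM (median 536) in the controls. That left 4.78% and 6.74% of the control mean. The log2 fold change, knockdown over control as throughout, was -4.12 ± 0.12 (SE, n = 2 and 6, adjusted p = 4.03e-18, edgeR quasi-likelihood test with Benjamini-Hochberg adjustment, as for every adjusted p below). RPS7 footprints had 3.49 and 3.48 CPM in the knockdown, against 23.3 to 76.2 CPM (median 36) in the controls, a log2 fold change of -3.69 ± 0.41 (adjusted p = 1.05e-07). Neither assay had an overlap between the groups. The footprint-to-mRNA ratio of RPS7 did not pass the test (0.66 ± 0.37, adjusted p = 0.467). Across the series, 89 libraries of other knockdowns had 402 to 851 CPM of RPS7 mRNA, so the reduction was not seen under any other target.

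**Figure D1:**
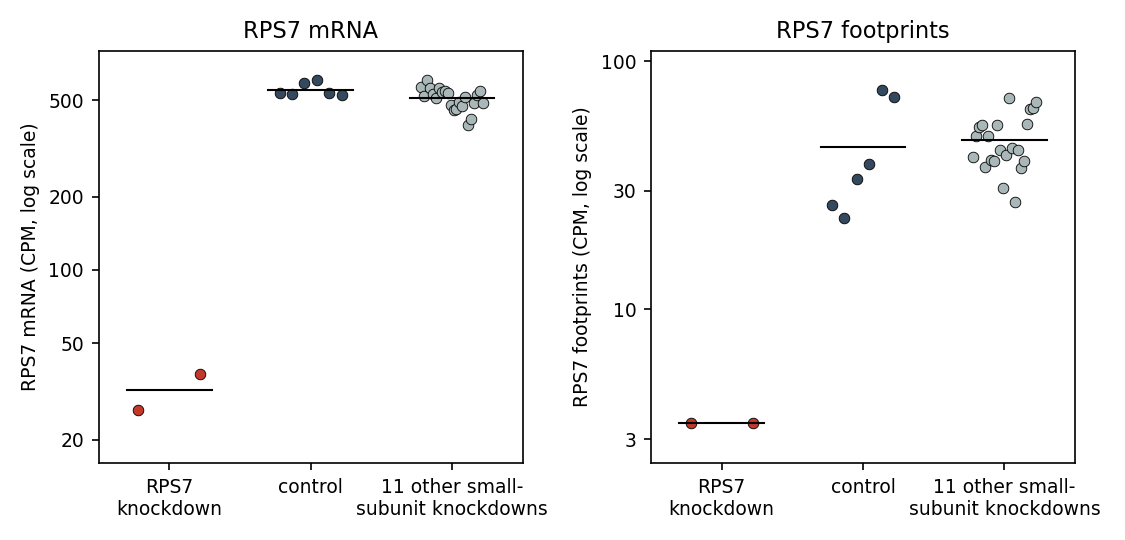
RPS7 mRNA (left) and RPS7 footprints (right) in CPM on a log scale, for the RPS7 knockdown (2 libraries), control (6) and 11 other small-subunit knockdowns (22). Each point is a library and each bar the mean of its group. Both RPS7 libraries lie below every other library drawn, at 26.5 and 37.4 CPM of mRNA and at 3.49 and 3.48 CPM of footprints.

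The question of the main comparison was how mRNA amounts and their translation differ from control cells once RPS7 is depleted. Of 15879 genes tested in RNA-seq, 1356 were higher (8.54%) and 1196 were lower (7.53%) in RPS7 knockdown. Within the number range 15.4% were higher and 17.1% lower. With only the 8 libraries in the fit, 24 genes were higher and 4 lower. The other groups, whose pairs differed less in RNA-seq, share in the estimate of the spread. The SE and adjusted p of mRNA may therefore be too small. Of the 2552 genes that passed against all controls, 2500 had the same sign within the range and 1520 passed there with that sign. Without RPS7 2 the test passed 517 higher and 455 lower genes, and without control 20_2 it passed 3269 and 3127.

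Targets of p53 had the largest median rise of the 28 gene lists described. Of 40 p53 target genes tested, 21 were higher and 1 was lower, with a median log2 fold change of 0.72 against -0.03 over all genes tested. Within the range 34 were higher and 1 lower (median 1.09), and without the libraries that stand apart 26 and 1. The mean log2 level of the list lay 0.84 and 0.76 above the control mean in the RPS7 libraries, and between -0.21 and 0.19 in the controls, with no overlap. Repair genes were among them. XPC, which recognises DNA damage for nucleotide excision repair, had 84.6 and 94.7 CPM in RPS7 knockdown and 26.3 to 30.8 CPM (median 26.9) in controls, with a log2 fold change of 1.70 ± 0.07 (adjusted p = 8.25e-15). DDB2 of the same pathway rose by 1.17 and POLH, a translesion polymerase, by 1.30.

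Growth arrest genes rose as well. CDKN1A, which encodes p21 and blocks cyclin-dependent kinases, had 376 and 528 CPM in the RPS7 libraries, above the 135 to 249 CPM (median 179) of the controls (1.34 ± 0.14, adjusted p = 3.11e-07, within-range 1.09). BTG2, an antiproliferative gene, had 60.7 and 62.0 CPM in RPS7 knockdown and 12.8 to 20.1 CPM (median 15.3) in controls (1.95 ± 0.12, adjusted p = 5.41e-12). The groups overlapped for neither gene, which for BTG2 follows from the rule for named genes. FDXR, the mitochondrial ferredoxin reductase, had 150.4 and 211 CPM in RPS7 knockdown and 26.9 to 82.4 CPM (median 36.6) in controls, a log2 fold change of 2.02 ± 0.23 (within-range 1.40), with the highest control value in 20_2. SPATA18, a mitochondrial quality control gene, rose by 1.84 ± 0.15. Cell death genes were also on the rising side, with BBC3 (PUMA) at 1.54 and BAX at 0.73, although BAX did not pass within the range (0.30, adjusted p = 0.0685). CYFIP2, a p53-induced gene that binds the WAVE complex, had 203 and 199 CPM in RPS7 knockdown and 63.1 to 90.4 CPM in controls (1.5 ± 0.09). E2F7, a repressor of E2F genes, was the member that fell, by 0.79.

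MDM2 depended on the control. MDM2 mRNA had 342 and 201 CPM in the RPS7 libraries and 54.1 to 254 CPM (median 161) in the controls, so the groups overlapped, and the log2 fold change of 0.71 ± 0.30 did not pass (adjusted p = 0.112), with 20_2 the lowest control. Within the range it was 1.69 ± 0.23 (adjusted p = 7.10e-06), and without the libraries that stand apart 0.86 (adjusted p = 0.0199). RRM2B, a p53-induced ribonucleotide reductase subunit, behaved in the same way, with 0.55 (adjusted p = 0.41) against all controls and 1.88 (adjusted p = 5.40e-04) within the range, as did the death receptor FAS (0.75, adjusted p = 0.08, and 1.71) and the cyclin CCNG1 (0.04, adjusted p = 0.969, and 1.59). Of 24 regulators of MDM2 and p53 tested, none was higher and 5 were lower, and within the range 3 were higher and 10 lower. Among the 5 were RPL5 (-0.31) and RPL23 (-0.33), ribosomal proteins that bind MDM2, and MDM4 (-0.58, within-range -0.08, which did not pass).

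Outside the p53 list the largest rises by the rule for named genes included actin filament genes. ACTA2, smooth muscle actin, had 31.4 and 40.7 CPM in RPS7 knockdown and 5.98 to 8.89 CPM (median 6.65) in controls (2.37 ± 0.11, adjusted p = 4.50e-14). TPM4, a tropomyosin, had 613 and 538 CPM in RPS7 knockdown and 106 to 157 CPM (median 137) in controls (2.07 ± 0.09, adjusted p = 2.34e-14). Of the 20 genes tested in the actin, SRF and YAP list, 3 were higher and 4 lower (median 0.07), and TPM3, another tropomyosin, fell by 0.71 ± 0.07. OSBPL5, a lipid transfer protein, rose by 1.82 ± 0.19, and GANAB, a glucosidase subunit of the endoplasmic reticulum, had 414 and 470.2 CPM in RPS7 knockdown against 91.2 to 189 CPM in controls (1.79 ± 0.15).

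The genes that fell furthest after RPS7 itself, by the rule for named genes, were RMND5A, SCML1, WASF1, LBR, PUDP, NEMP1 and ENSG00000273760. RMND5A, a subunit of the CTLH ubiquitin ligase, had 22.7 and 18.1 CPM in RPS7 knockdown and 53.1 to 137 CPM (median 108) in controls (-2.37 ± 0.22, adjusted p = 3.85e-08, within-range -1.87). LBR, the lamin B receptor, had 26.8 and 18.8 CPM in RPS7 knockdown and 58.6 to 113 CPM (median 90.6) in controls (-1.99 ± 0.18, adjusted p = 1.13e-08). NEMP1, another inner nuclear membrane protein, fell by 1.78 ± 0.22. In these genes the lowest control was 20_2. Both RPS7 libraries lay below it, as the rule for named genes requires. WASF1, a WAVE complex subunit that drives actin branching, had 2.89 and 3.19 CPM in RPS7 knockdown and 5.42 to 19.3 CPM (median 12.4) in controls (-2.12 ± 0.30, adjusted p = 1.95e-05, within-range -1.41). PUDP, a pseudouridine monophosphate phosphatase, had 13 CPM in each RPS7 library and 44.5 to 56.4 CPM in controls (-1.98 ± 0.10, adjusted p = 5.90e-13). SCML1, a Polycomb group-like gene, fell by 2.16 ± 0.31 (within-range -1.34) and ENSG00000273760, which has no symbol in the table used, by 1.77 ± 0.33, with a within-range value of -0.83.

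Genes of DNA replication fell. Over all genes tested 7.53% were lower and 8.54% higher, and within the range 17.1% and 15.4%. Of 48 replication genes tested, 19 were lower and 2 higher (median -0.38), and within the range 34 were lower and 1 higher (median -0.65). The list mean lay 0.38 and 0.41 below the control mean in the RPS7 libraries, and between -0.11 and 0.14 in the controls. CDC6, which loads the replicative helicase, had 49.9 and 32.2 CPM in RPS7 knockdown and 81.8 to 99.3 CPM (median 90.5) in controls (-1.13 ± 0.12, adjusted p = 1.35e-07). MCM4, a subunit of that helicase, had 138 and 136 CPM in RPS7 knockdown and 192 to 248 CPM (median 209) in controls (-0.66 ± 0.09, adjusted p = 9.62e-06). MCM10 fell by 1.01 ± 0.15 and the checkpoint mediator CLSPN by 1.76 ± 0.32 (within-range -0.93). Replication-dependent histone genes, whose transcripts share near-identical sequence and may share reads, passed in 3 of 45 (all lower, median -0.35), and in 42 of 45 within the range (all lower, median -0.78). Relative to the control mean, their list mean was -0.35 and -0.20 in the RPS7 libraries, between -0.28 and 0.19 in 5 controls and 0.77 in 20_2, so RPS7 2 lay among the controls. H2BC10 is an example, with 72.3 and 79.2 CPM in RPS7 knockdown and 87.1 to 221 CPM in controls (-0.69 ± 0.24, adjusted p = 0.0473, within-range -1.30), which did not pass without the libraries that stand apart (adjusted p = 0.0749). Mitosis genes passed in 6 of 45 (all lower, median -0.41). Within the range the median was 0.02 with 12 lower and 2 higher, and without the libraries that stand apart it was -0.27. The mitosis list means, -0.19 and -0.73 in RPS7 knockdown, overlapped the -0.72 to 0.50 of the controls. TPX2, a spindle assembly factor, fell by 0.47 ± 0.09 and CCNB1, the mitotic cyclin, by 0.38 ± 0.11, both with the same sign within the range (-0.40 and -0.57). CCNB1 did not pass without the libraries that stand apart (-0.20, adjusted p = 0.232). CENPE, a kinetochore motor, had -3.31 ± 1.15 against all controls and 1.5 ± 0.82 within the range, where it did not pass.

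Of the translation machinery lists, those of large-subunit proteins, other TOP mRNAs and snoRNA hosts had the larger shares of lower mRNAs, beside 7.53% of all genes tested. Of 32 small-subunit ribosomal protein genes, RPS7 included, 3 were lower and none higher (median -0.18), and within the range 26 were lower (median -0.45). Of 47 large-subunit genes, 10 were lower and none higher (median -0.24), and within the range 38 were lower (median -0.46). RPS6 had 1153 and 1147 CPM in RPS7 knockdown and 1453 to 1725 CPM (median 1624) in controls (-0.48 ± 0.08, adjusted p = 7.80e-05), with no overlap. RPL3 fell by 0.56 ± 0.13 (within-range -0.86). Of 18 other TOP mRNAs, 5 were lower, among them EIF4B (-0.52 ± 0.09), an initiation factor that helps the helicase eIF4A, and EIF3L (-0.47 ± 0.09). Of 57 genes for 40S assembly factors 2 were higher and 4 lower, with NOP56, a core protein of box C/D snoRNPs, at -0.41 and the helicase DHX37 at 0.88 (within-range 0.34, adjusted p = 0.0705). The list means of the 40S assembly factors, -0.07 and -0.26 in RPS7 knockdown, lay within the -0.36 to 0.18 of the controls, and within the range 14 were lower and 5 higher (median 0.02). Of 50 for 60S assembly 4 were lower, and within the range 12 were lower and 5 higher. Host transcripts of snoRNAs, many of which also start with a TOP stretch, passed in 8 of 16, all lower (median -0.50), led by SNHG16, with 164 and 137 CPM in RPS7 knockdown and 319 to 433 CPM (median 353) in controls (-1.29 ± 0.11, adjusted p = 6.00e-09, within-range -1.23). EIF4EBP2, a repressor of cap-dependent initiation, had 88.8 and 85.2 CPM in RPS7 knockdown and 163 to 203 CPM in controls (-1.04 ± 0.09, adjusted p = 2.23e-08). It was 1 of 3 initiation factor genes of 33 that were lower, and none was higher, with 9 lower and 3 higher within the range.

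Counts of the stress response lists changed with the controls used. Beside them stand 8.54% of all genes tested that were higher and 7.53% that were lower, and within the range 15.4% and 17.1%. Against all controls the sterol, NRF2, interferon, and 40S ubiquitination and ribosome rescue lists lay near these shares. Of 31 integrated stress response genes, 8 were lower and 1 higher (median -0.22), and within the range 15 and 2. CHAC1, a glutathione-degrading enzyme and target of ATF4, had 3.82 and 3.90 CPM in RPS7 knockdown and 6.77 to 12.6 CPM in controls (-1.22 ± 0.22, adjusted p = 2.64e-04), and ATF4 itself fell by 0.53 ± 0.13 (within-range -0.81). Of 20 aminoacyl-tRNA synthetase genes, several of them on the same list, 6 were lower and 1 higher, with WARS1 at -0.53 ± 0.07. Of 20 endoplasmic reticulum chaperone and unfolded protein response genes 5 were lower and none higher, and within the range 6 were lower and 4 higher. Their list means, -0.30 and -0.36 in RPS7 knockdown, lay within the -0.38 to 0.25 of the controls. HERPUD1 was at -0.91 ± 0.12 (within-range -0.61) and the chaperone HSPA5 at -0.58 ± 0.17 (within-range -0.13, adjusted p = 0.303, and adjusted p = 0.0557 without the libraries that stand apart). Of 23 immediate early genes 9 were lower, among them SPRY4 (-1.01 ± 0.11), a feedback inhibitor of receptor kinases, and EGR1 (-1.18 ± 0.25, within-range -0.74). MYC fell by 0.35 ± 0.10, with 138 and 180.4 CPM in RPS7 knockdown and 174 to 222 CPM in controls. Heat shock chaperones passed in 1 higher and 5 lower of 18 (median -0.26), with a median of 0.10 within the range. Sterol and fatty acid synthesis genes passed in 1 higher and 3 lower of 31, and within the range in 1 and 16. NRF2 genes passed in 1 and 2 of 22 (median 0.11), and within the range in 1 and 8 (median -0.20). NF-kB genes passed in 0 and 4 of 17, and within the range in 2 and 4. The remaining lists passed as follows: interferon response genes in 1 and 1 of 19 (4 and 4 within the range), matrix and adhesion genes in 5 and 2 of 29, and 40S ubiquitination and ribosome rescue factors in 2 and 2 of 24 (6 and 7 within the range, median 0.10). None of the 13 mitochondrially encoded genes passed, with a median of -1.12 against all controls and 0.21 within the range.

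**Figure D2:**
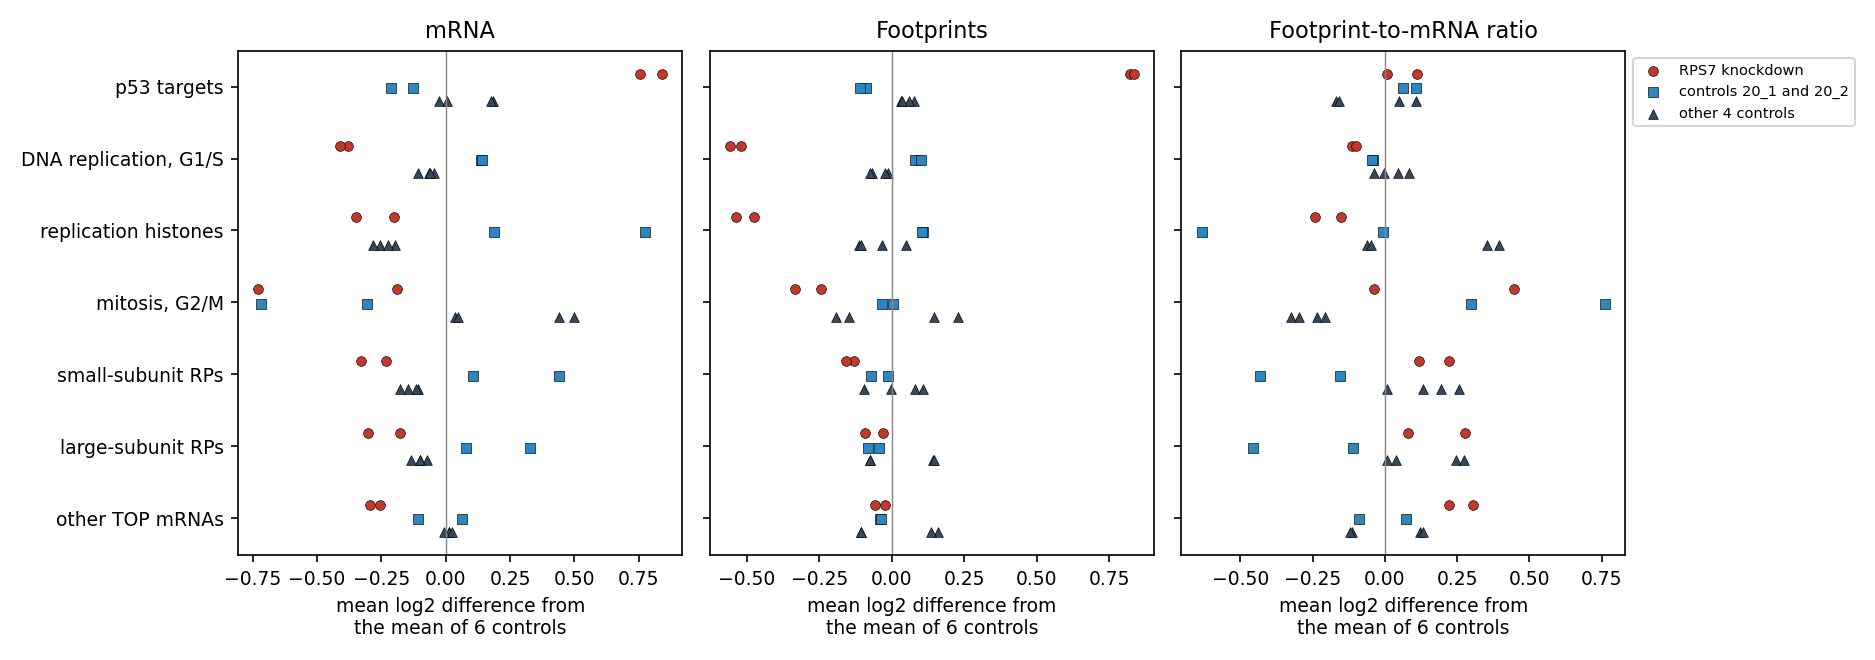
Mean log2 difference of 7 gene lists from the mean of the 6 controls, per library, in mRNA, footprints and the footprint-to-mRNA ratio. Red circles are the RPS7 libraries, blue squares controls 20_1 and 20_2, dark triangles the other 4 controls. The p53 targets lie at 0.84 and 0.76 in mRNA and at 0.82 and 0.83 in footprints in RPS7 knockdown, above all controls. The DNA replication genes lie at -0.52 and -0.56 in footprints. In the ratio panel the RPS7 libraries overlap the controls for both ribosomal protein lists.

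In footprints, of 13002 genes, 1357 were higher (10.4%) and 1612 lower (12.4%), and within the range 11.7% and 14.4%. Of the 2969 genes that passed, 2962 had the same sign within the range and 2214 passed there with it. Without RPS7 1 the counts were 598 and 673, and without RPS7 2 they were 805 and 691. Among 12654 genes measured in RNA-seq and Ribo-seq alike, 651 were higher in both, 604 lower in both and 5 went in opposite directions. The p53 targets passed in 27 higher and 1 lower of 40 (median 0.71, against -0.04 over all genes), and within the range in 33 and 1. MDM2 passed here. Its footprints had 266 and 241 CPM in RPS7 knockdown and 60.4 to 132 CPM (median 72.7) in controls, with no overlap (1.53 ± 0.18, adjusted p = 4.66e-07, within-range 2.03). CDKN1A had 222 and 214 CPM in RPS7 knockdown and 64.7 to 128 CPM (median 81.4) in controls (1.25 ± 0.18), and FAS 70.6 and 58.6 CPM in RPS7 knockdown against 19.3 to 38.7 CPM in controls (1.27 ± 0.18). MYC did not pass in footprints (-0.32 ± 0.14, adjusted p = 0.088).

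In footprints 12.4% of all genes tested were lower and 10.4% higher, and within the range 14.4% and 11.7%. DNA replication genes were lower in 30 of 47 and higher in none (median -0.55), and lower within the range in 37. Without the libraries that stand apart the median was -0.53. Their list mean lay 0.52 and 0.56 below the control mean in RPS7 knockdown, and between -0.08 and 0.10 in controls. CDC6 footprints had 67.8 and 64.2 CPM in RPS7 knockdown and 123 to 193 CPM (median 140.0) in controls (-1.19 ± 0.16), and MCM4 footprints 275 and 264 CPM in RPS7 knockdown against 444 to 583 CPM in controls (-0.92 ± 0.09). Histone genes were lower in 26 of 50 (median -0.60, and -0.63 without the libraries that stand apart), and within the range in 37. None of the DNA replication, histone or mitosis genes passed in the ratio against all controls. H3C10 had 594 and 621 CPM in RPS7 knockdown and 968 to 1188 CPM in controls (-0.84 ± 0.10, adjusted p = 1.75e-07). Mitosis genes were lower in 17 of 45 (median -0.31, and -0.28 without the libraries that stand apart). CDC20, the activator of the anaphase-promoting complex, was at -0.94 ± 0.09. CENPE, whose mRNA changed sign with the controls used, had 91.5 and 74.5 CPM of footprints in RPS7 knockdown and 81.3 to 110 CPM in controls (-0.18 ± 0.16, adjusted p = 0.463). Endoplasmic reticulum chaperones were lower in 10 of 20 (median -0.43) and integrated stress response genes in 17 of 31, with 1 higher (median -0.37). Without the libraries that stand apart these medians were -0.45 and -0.34. STC2, a secreted glycoprotein induced by ATF4, had 57.4 and 58.4 CPM in RPS7 knockdown and 95.9 to 222 CPM in controls (-1.29 ± 0.24, within-range -0.76). Of the remaining lists, sterol genes passed in 12 lower and 1 higher of 31, aminoacyl-tRNA synthetases in 9 and 3 of 20, heat shock chaperones in 7 and 2 of 18, 40S assembly factors in 13 and 3 of 58, 60S assembly factors in 9 and 0 of 50, NF-kB genes in 8 and 0 of 19, and initiation factors in 4 and 7 of 33. The medians of these lists were -0.24, -0.31, -0.21, -0.23, -0.12, -0.66 and 0.03, in the same order. Without the libraries that stand apart they were -0.26, -0.30, -0.17, -0.24, -0.08, -0.96 and 0.02. That fit keeps 1 RPS7 library, so its counts are not given for these lists. Within the range the NF-kB genes passed in 3 lower and 1 higher and the sterol genes in 20 and 1.

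The largest single changes in footprints included genes that were not among the largest in mRNA. HIPK3, a homeodomain-interacting protein kinase (chr11:33256672-33357023, GRCh38.p14 in RefSeq), had 5.48 CPM in each RPS7 library and 47.8 to 85.1 CPM (median 61.4) in controls, a log2 fold change of -3.58 ± 0.19 (adjusted p = 3.24e-14), close to that of RPS7 itself. RMND5A footprints had 4.54 and 4.09 CPM in RPS7 knockdown and 33.4 to 62.7 CPM (median 37.4) in controls (-3.36 ± 0.25, adjusted p = 7.98e-11). The within-range values were -3.40 and -3.10. Neither gene had overlapping groups, which the rule for named genes requires. Over all 13002 genes, both RPS7 libraries lay above all 6 controls in 1847 and below them in 1860. LBR fell by 2.38 ± 0.15 and NEMP1 by 2.41 ± 0.22, as in mRNA. MICU3, a regulator of the mitochondrial calcium uniporter, had 1.85 and 0.696 CPM in RPS7 knockdown and 5.91 to 9.52 CPM in controls (-2.47 ± 0.29). PI4K2B, a phosphatidylinositol kinase, fell by 2.57 ± 0.36, and TMEM158, a membrane protein induced by RAS, by 2.62 ± 0.71 (adjusted p = 0.00745), which did not pass without the libraries that stand apart (adjusted p = 0.0691). On the rising side ACTA2 had 64.1 and 56.5 CPM in RPS7 knockdown and 8.75 to 14.2 CPM in controls (2.45 ± 0.12, adjusted p = 2.07e-14). OSBPL5 (2.48 ± 0.23), the zinc finger gene ZNF664 (2.25 ± 0.25), HABP4 (2.15 ± 0.19), a hyaluronan- and RNA-binding protein, the forkhead factor FOXP4 (2.14 ± 0.16), BICD2, a dynein adaptor (2.13 ± 0.14), PCNX3 (2.09 ± 0.20) and BTG2 (2.07 ± 0.16) made up the rest of the 8 largest rises by the rule for named genes.

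**Figure D3:**
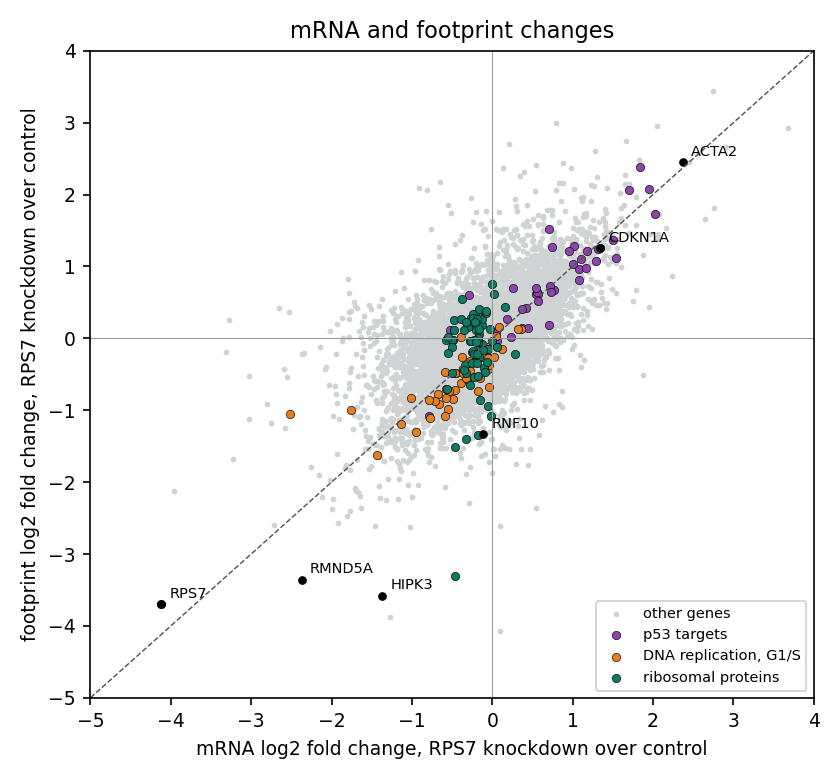
Log2 fold change of mRNA (x) and of footprints (y), RPS7 knockdown over control, for genes tested in both assays, with p53 targets, DNA replication genes and ribosomal protein genes in colour and the dashed line marking equal change. ACTA2 (2.37 and 2.45) and CDKN1A (1.34 and 1.25) lie near the line, RNF10 (-0.11 and -1.33) and HIPK3 (-1.37 and -3.58) below it.

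The ratio of footprints to mRNA per lysate, or translation efficiency, was compared in a single model over both assays, with a term for each lysate and an interaction of assay with group. Of 12654 genes, 45 had a higher ratio (0.356%) and 12 a lower ratio (0.0948%) in RPS7 knockdown, and within the range 0.680% and 0.624%. All 57 kept their sign within the range and 21 passed there. With only the 8 lysates in the fit, 0 ratios passed as higher and 0 as lower (edgeR, 179 and 126 at an unadjusted p under 0.05). The ratio uses the RNA-seq pairs of RPS7 and of controls 20, so its SE and adjusted p may also be too small. Of the 45, 39 had footprints called higher and 8 had mRNA called lower, and of the 12, 10 had footprints called lower. The counts were 12 and 3 without RPS7 1, 3 and 2 without RPS7 2, and 1358 and 702 without control 20_2. The count of lower ratios was 6 without control 11_1, 7 without 21_1 and 4 without 21_2.

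HIPK3 led the lower ratios. Its log2 ratio was -3.94 and -3.28 in the RPS7 lysates and -2.03 to -0.90 in the controls (-2.20 ± 0.21, adjusted p = 3.30e-07, within-range -2.59). Its mRNA also fell, by 1.37, so that the footprint change was the larger. RNF10, the ubiquitin ligase that modifies small-subunit proteins of stalled ribosomes (chr12:120534356-120577588), had log2 ratios of -4.04 and -4.01 in RPS7 knockdown and -3.29 to -2.33 in controls (-1.19 ± 0.17, adjusted p = 4.14e-04, within-range -0.98). RNF10 mRNA did not pass (-0.11, adjusted p = 0.539, within-range -0.38, adjusted p = 0.00306), whereas its footprints fell by 1.33 (adjusted p = 6.50e-07). The other small-subunit knockdowns had RNF10 log2 ratios of -4.06 to -3.27, and the difference from them did not pass (-0.44 ± 0.15, adjusted p = 0.183). Mean RNF10 footprints were 13.9 CPM in RPS7 knockdown and 12.8 CPM in RPS12 knockdown. RMND5A fell by 0.98 ± 0.23 in the ratio. ELOA, an elongin subunit, had the ratio lower by 0.89 ± 0.15 with mRNA higher by 0.67, and MED28, DERL2 and EMP2 had log2 changes of the ratio of -0.74, -0.71 and -0.66, of which only DERL2 passed within the range (-0.70). Without the libraries that stand apart neither MED28 nor EMP2 passed (adjusted p = 0.152 and 0.102). On the other side HEXIM1, the inhibitor of the elongation kinase P-TEFb, gained in mRNA (0.64), in footprints (1.59) and in the ratio (1.01 ± 0.13, adjusted p = 1.85e-04, within-range 0.92). It lies outside the rule for named genes and was chosen after its values were seen. ZKSCAN1 (1.27 ± 0.18, adjusted p = 4.14e-04) and ANKRD11, a chromatin regulator (1.14 ± 0.19, adjusted p = 0.00293), kept their calls within the range (0.92 and 0.84), and RAMAC, ZNF84, ZNF791, ZNF121, ZNF331 and ZNF227, with changes of 1.15 to 1.94 (within-range 0.72 to 1.61), did not. RAMAC and ZNF227 also did not pass without the libraries that stand apart (adjusted p = 0.0515 and 0.0604).

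The ratios of most ribosomal protein mRNAs did not pass, with medians above that of all genes. The median was 0.32 over 31 small-subunit genes, 0.23 over 47 large-subunit genes and 0.27 over 18 other TOP mRNAs, against -0.01 over all genes tested, and within the range 0.56, 0.52 and 0.36. Single genes passed in 2 higher and 1 lower, 2 and 0, and 1 and 0. Within the range they passed in 13 and 0, 14 and 0, and 6 and 1. The list means of the RPS7 lysates overlapped those of the controls for both ribosomal protein lists, with 0.22 and 0.12 in RPS7 knockdown against -0.43 to 0.26 in controls for the small-subunit genes, and 0.28 and 0.08 against -0.46 to 0.27 for the large-subunit genes, and 20_2 was the lowest control in both. For the other TOP mRNAs they did not overlap, with 0.22 and 0.30 in RPS7 knockdown against -0.12 to 0.13 in controls. RPS19 had log2 ratios of 2.10 and 1.89 in RPS7 knockdown and 0.65 to 1.53 in controls (0.75 ± 0.16, adjusted p = 0.0242), with footprints at 4918 and 4847 CPM in RPS7 knockdown against 2535 to 3196 CPM in controls. RPS6 had 0.33 and 0.29 in RPS7 knockdown and -0.59 to -0.01 in controls (0.65 ± 0.13, adjusted p = 0.0156). RPL31 (0.76 ± 0.16), RPL23A (1.02 ± 0.22) and EIF4B (0.57 ± 0.13) also passed, but RPL31 and EIF4B did not within the range (adjusted p = 0.0677 and 0.192), and RPL23A and EIF4B did not without the libraries that stand apart (adjusted p = 0.0734 and 0.0728). RPSA, the laminin receptor family member of the 40S subunit, went the other way, with -4.76 and -4.84 in RPS7 knockdown and -4.31 to -3.18 in controls (-1.09 ± 0.21, adjusted p = 0.0108, within-range -0.71, adjusted p = 0.054), and footprints of 42.3 and 43.1 CPM in RPS7 knockdown against 78.5 to 99.1 CPM in controls. Ribosomal protein genes have many processed pseudogenes, and how reads with several matches were counted is not given in the sources used here, so their levels and ratios are uncertain. RPL39 footprints, for example, had at most 1.42 CPM in any of these libraries.

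The starts of RPS7, of 5 genes from the ribosomal protein and TOP lists whose ratio passed, and of RNF10 and HIPK3, whose ratio was lower, show which carry the TOP stretch. RPL23A is not shown. Each line gives the 5 bases before and the 20 bases from the annotated start (RefSeq, GRCh38.p14), with the initial C and the pyrimidines that follow it without a break in capitals.
RPS7: tcctcCTCgcgctgtttccgcctct
RPS6: tggccCTCTTTTCCgtggcgcctcg
RPS19: tcgttCCCTTTCCCCTggctggcag
RPL31: gcgctCTTCCTTTCCaacttggacg
EIF4B: cgggtCTTTTgcgttctctttccct
RPSA: cctgtCTTTTCCgtgctacctgcag
RNF10: gagatgctgtttggcgactcgtcgc
HIPK3: ctgttgatttcctaatctccaggag
They lie at chr2:3575255-3575279 (RPS7, plus strand), chr9:19380217-19380241 (RPS6, minus), chr19:41860250-41860274 (RPS19, plus), chr2:101002284-101002308 (RPL31, plus), chr12:53006451-53006475 (EIF4B, plus), chr3:39406715-39406739 (RPSA, plus), chr12:120534351-120534375 (RNF10, plus) and chr11:33256667-33256691 (HIPK3, plus). The stretch was 9 bases in RPS6, 11 in RPS19, 10 in RPL31, 5 in EIF4B and 7 in RPSA, and RPSA, whose ratio was lower, carries it as do the 4 genes shown with a higher ratio. At its annotated start RPS7 has 3. A C followed by at least 4 pyrimidines on the coding strand was found at the start of 18 of 24 small-subunit genes with a promoter entry, 25 of 38 large-subunit genes and 9 of 11 other TOP mRNAs, against 561 of 10056 genes tested (5.58%) and 4.07% of all 35116 promoter entries. Over all genes tested the median log2 change of the ratio was -0.01 with the stretch and -0.0023 without it. Over the small-subunit genes it was 0.44 with it and 0.16 without it (6 genes), over the large-subunit genes 0.09 and 0.31, and over the other TOP mRNAs 0.25 and 0.51 (2 genes without it). Within the range the small-subunit values were 0.60 and 0.61, the large-subunit values 0.45 and 0.52, and those of the other TOP mRNAs 0.40 and 0.78.

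The second comparison set RPS7 knockdown against the equally weighted mean of 11 other small-subunit knockdowns. In mRNA 654 genes were higher (4.12%) and 438 lower (2.76%), in footprints 394 (3.03%) and 365 (2.81%), and in the ratio 4 (0.0316%) and 1 (0.0079%). The controls enter it only through the estimate of the spread. It shares the RPS7 libraries with the comparison above, and 6 of the 11 targets carry numbers outside the range 13 to 20. Against the 5 targets inside it, RPS10, RPS15 and RPS15A among them, the counts were 167 and 264 in mRNA and 278 and 282 in footprints. The mRNA counts were 1731 and 880 without RPS7 1, 9 and 96 without RPS7 2, and 2413 and 1216 without control 20_2. Those of footprints were 44 and 104 without RPS7 1 and 61 and 110 without RPS7 2. Those of the ratio were 19 and 12 without RPS7 1, 0 and 1 without RPS7 2 (193 higher at an unadjusted p under 0.05), and 585 and 482 without control 20_2. RPS7 mRNA itself was lower by 3.99 ± 0.12 than in the other knockdowns and its footprints by 3.75 ± 0.40.

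Some p53 targets were higher than the mean of the other small-subunit knockdowns. Of the 40, 5 were higher and none lower in mRNA (median 0.18), beside 4.12% and 2.76% of all genes, and 6 were higher and 1 lower in footprints (median 0.12), beside 3.03% and 2.81%. Against the 5 targets in the range 2 were higher and 1 lower in mRNA, and 5 and 1 in footprints. Over all genes tested, 167 were higher and 264 lower of 15879 in mRNA there, and 278 and 282 of 13002 in footprints. CDKN1A was higher by 0.47 ± 0.13 in mRNA (adjusted p = 0.0357), which did not pass against the 5 targets in the range (0.43, adjusted p = 0.112). Its mRNA in RPS7 knockdown, 376 and 528 CPM, lay within the 182 to 1268 CPM of the other small-subunit libraries. CDKN1A footprints did not pass (0.01 ± 0.17, adjusted p = 0.987). MDM2 passed in neither assay (-0.04 ± 0.29 and 0.26 ± 0.17), but its footprints passed against the 5 targets (0.61, adjusted p = 0.0464). Among the 17 groups with numbered titles, RPS7 knockdown was in the middle for MDM2, with 271 CPM of mRNA against 801 CPM in RPL21 knockdown, the highest, and 83.3 CPM in RPS15 knockdown, the lowest. ACTA2, which led the mRNA rises against control, was higher than the mean of these knockdowns by 0.54 ± 0.10 in mRNA and 0.53 ± 0.11 in footprints. Both RPS7 libraries lay within the range of the other small-subunit libraries, 12.4 to 87.3 CPM of ACTA2 mRNA and 17.7 to 144 CPM of footprints. TPM4 mRNA did not pass (-0.13 ± 0.09, adjusted p = 0.377). Mitosis genes were higher in 10 of 45 in footprints and in 8 of 45 in mRNA, with none lower. Against the 5 targets they were higher in 5 and 2, beside 278 of 13002 genes in footprints and 167 of 15879 in mRNA. Among them were PRC1 (0.49) and CCNA2 (0.40) in footprints and AURKA (0.36 in mRNA and 0.41 in footprints). DNA replication genes were higher in 4 of 47 in footprints, and in 2 against the 5 targets.

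The largest differences from the other small-subunit knockdowns were on the lower side. HIPK3 footprints, at 5.48 CPM in both RPS7 libraries, were lower than in any of the 16 other groups, of which RPS10 knockdown came nearest with a mean of 15.7 CPM (-2.51 ± 0.17 against the 11 targets, adjusted p = 6.87e-11, and -2.27 against the 5 in the range). HIPK3 was also the gene whose ratio was lower (-1.53 ± 0.19, adjusted p = 1.25e-04). WASF1 had 3.04 CPM of mRNA on average in RPS7 knockdown, against 7.57 CPM in the nearest group, RPL15 knockdown (-2.10 ± 0.29 against the 11 targets, adjusted p = 5.23e-05), and its footprints were lower by 2.0 ± 0.22. LBR had 22.8 CPM of mRNA, against 44.3 CPM in the nearest group, RPS3 knockdown (-1.70 ± 0.16, adjusted p = 2.63e-07). RMND5A footprints were lower by 2.01 ± 0.23 than over the 11 targets together. MICU3 footprints were lower by 2.07 ± 0.27, PEAR1 mRNA, for an endothelial aggregation receptor, by 1.64 ± 0.19, and OTUD6B mRNA, for a deubiquitinase, by 1.90 ± 0.47, with -1.43 (adjusted p = 0.106) against the 5 targets in the range.

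The largest rises against the other small-subunit knockdowns were of 1.46 or less. In mRNA the gene HR, a nuclear receptor corepressor, was higher by 1.10 ± 0.25, TUSC1 by 0.77 ± 0.19, H3-3A, which encodes the replication-independent histone H3.3 and has near-identical copies, by 0.69 ± 0.15, OLFM1 by 0.68 ± 0.12 and SLC17A5, the lysosomal sialic acid transporter, by 0.60 ± 0.09. Against the 5 targets in the range only SLC17A5 of these passed (0.45, adjusted p = 0.0113). Against control H3-3A (0.54) and SLC17A5 (0.39) passed. HR (0.77, adjusted p = 0.0799, within-range 0.0095), TUSC1 (0.56, adjusted p = 0.0778) and OLFM1 (0.19, adjusted p = 0.398) did not pass against control. In footprints KIAA1191 (1.46 ± 0.32), the fibrinogen chain FGA (1.09 ± 0.31), the glycosyltransferase GCNT2 (1.02 ± 0.18), ZNF32 (1.00 ± 0.23) and HYCC2 (0.95 ± 0.18) were higher, and of these GCNT2 and HYCC2 passed against the 5 targets (adjusted p = 0.00219 and 0.0343). Against control FGA (1.23), GCNT2 (0.82) and ZNF32 (0.76) passed in footprints. KIAA1191 (0.73, adjusted p = 0.177) and HYCC2 (-0.05, adjusted p = 0.893) did not. The ratio of ADIPOR1, an adiponectin receptor, was higher by 0.97 ± 0.14 (adjusted p = 0.00104, and 0.34 with adjusted p = 0.986 against the 5). It did not pass against control (0.25, adjusted p = 0.494). DDIT3, which encodes the stress factor CHOP, had footprints higher by 0.99 ± 0.17 (adjusted p = 2.50e-04), with 23.6 and 20.3 CPM in RPS7 knockdown and 12.9 to 21.2 CPM in controls, against which it did not pass (0.35 ± 0.19, adjusted p = 0.213). Against the 5 targets it did not pass either (0.59, adjusted p = 0.0606).

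**Figure D4:**
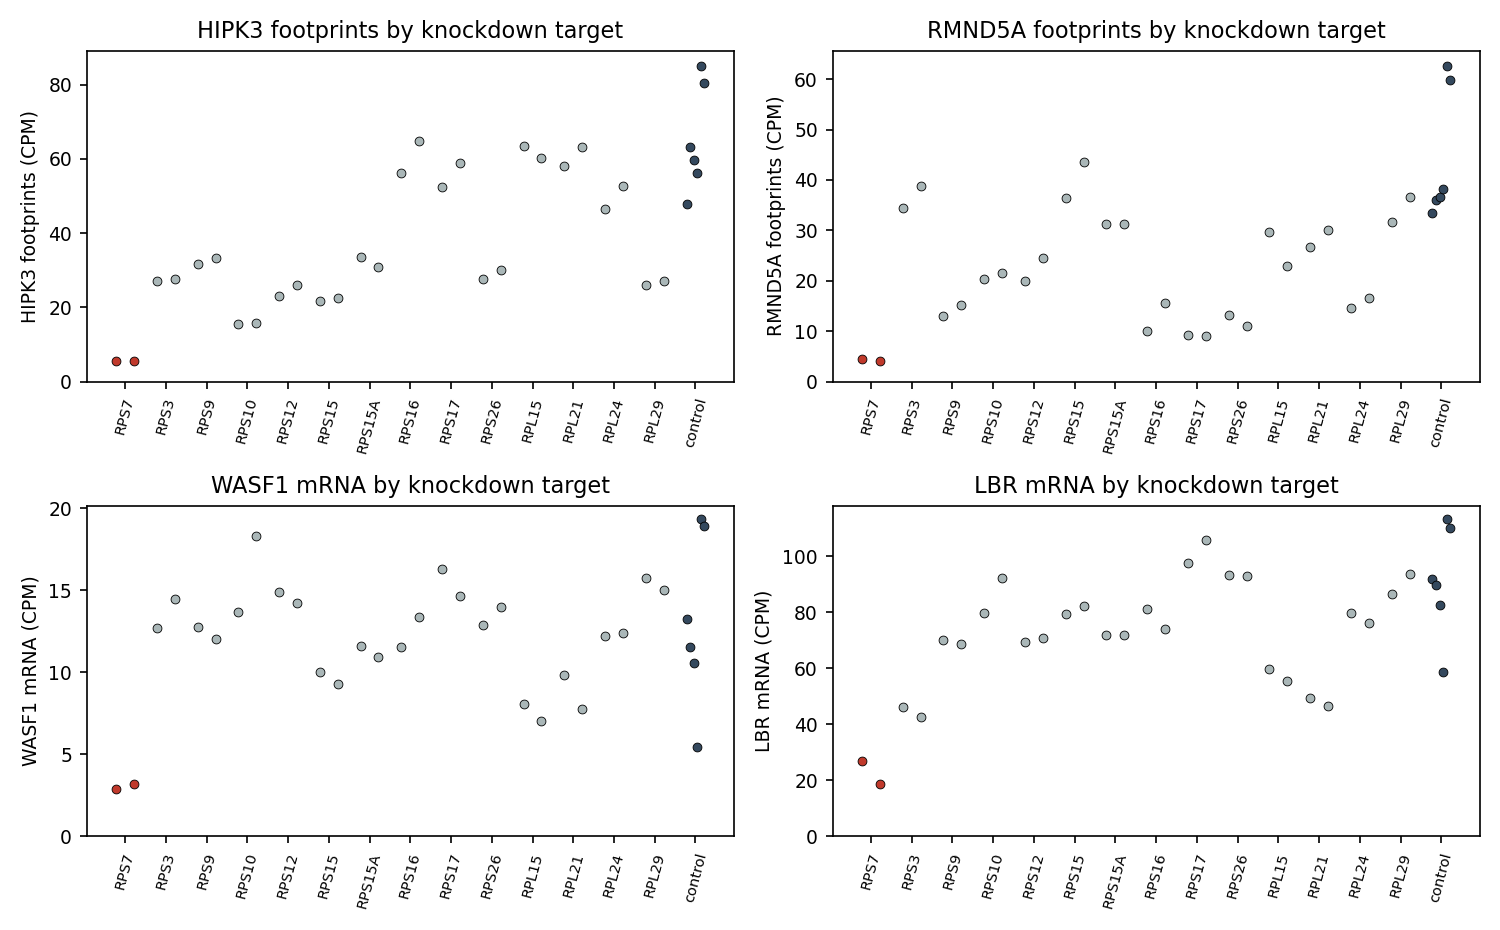
Footprints of HIPK3 and RMND5A and mRNA of WASF1 and LBR in CPM, for RPS7 knockdown (red, left), 13 of the other targets with numbered titles (grey) and control (dark, right). Each point is a library. RPS7 knockdown has the lowest mean of the groups drawn in each panel, 5.48 CPM for HIPK3, 4.31 CPM for RMND5A, 3.04 CPM for WASF1 and 22.8 CPM for LBR.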

How the data were processed

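Whole-number read counts per Ensembl gene were deposited by the authors, with RNA-seq reads counted in exons and Ribo-seq reads in coding sequences as the names of the deposited tables say, neither normalized nor pooled. Per the submitters' processing notes the build was GRCh38, reads were made with bcl2fastq 2.20.0.422, and STAR 2.6.1 and cutadapt 1.8.1 were used. The program that counted reads, its strand setting and its rule for reads with several matches were not given in the sources used here. Columns were matched to samples by name (0 with values stayed unmatched). The columns of controls 21_1 and 21_2 and of RPS15 RNA-seq were matched only to their group, since the titles carry other numbers. RNA-seq and Ribo-seq columns of 1 name were taken as 1 lysate. Symbols were found for 40811 of 41379 identifiers in RNA-seq and 19119 of 19217 in Ribo-seq. Libraries of a group differed beyond sampling noise (chi-square over its degrees of freedom at least 3.26), so all were counted separately.

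Tests used edgeR 4.0.16 (glmQLFit, glmQLFTest, TMM scaling, Benjamini-Hochberg adjustment over all genes at 0.05) in R 4.3.3 on the 38 libraries per assay with numbered titles (16 targets and controls, which share 1 estimate of the spread), with genes at 1 CPM or more in at least 2 libraries and a mean per group. Translation efficiency was the interaction of assay and group with a term per lysate. SE come from the log2 fold change and its test statistic. Levels are TMM-scaled CPM, and list means of mRNA and footprints use log2(CPM + 0.5). Ratios per lysate and their list means use the difference of log2 CPM with a prior count of 2. Other fits used DESeq2 1.42.0, limma 3.58.1 on lysate ratios (prior count 2), the replicate block and left-out libraries; the number range, its 5 targets and leaving out the libraries that stand apart were chosen after seeing the data. Fits were tested on simulated data with 200 changed genes.

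The 28 gene lists and the comparison were chosen with earlier results of these data known. The rule for named genes took the 8 largest rises and 8 largest falls per comparison among genes that passed, averaged 5 CPM or more and had both RPS7 libraries beyond all controls (5 and 5 beyond all 22 libraries of the other targets), the 3 members of each list with the smallest p in mRNA, and RPS7, MDM2, CDKN1A and MYC. Some genes and targets that the rule or the comparisons reach are not reported here. Other list members were named as examples after their values were seen.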

Additional observations from a re-analysis of the deposited data

Results flagged for a closer look

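Among 164 values of the 6 controls (library totals, list means, named genes), 11 had a control whose gap to its nearest neighbour divided by the whole range was over Dixon's 95% critical value, which chance passes in about 1 of 20 groups. Control 20_2 was the library that stood out in 9 of them. In mRNA these were the list means of 60S assembly factors (gap over range 0.685), heat shock chaperones (0.669) and aminoacyl-tRNA synthetases (0.706), and RMND5A (0.629). In the ratio they were the list means of 40S assembly factors (0.734), initiation factors (0.724) and heat shock chaperones (0.863), and the genes ZNF227 (0.674) and MDM2 (0.754). Control 11_1 stood out for HABP4 footprints (0.756) and for the mean of fibroblast and endothelial markers in footprints (0.816), a list near the detection limit.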

How the results depend on the processing

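Counts are given as higher and lower genes. Left-out libraries set most counts. With each of the 8 left out in turn, mRNA against control ranged from 517 to 3269 higher and 455 to 3127 lower, footprints from 598 to 1521 and 673 to 1845, and the ratio from 3 to 1358 and 2 to 702. Against the other small-subunit knockdowns the ranges were 9 to 2413 and 96 to 1216 in mRNA, 44 to 513 and 104 to 449 in footprints, and 0 to 585 and 1 to 482 in the ratio. With only the 8 libraries of the comparison in the fit the counts fell to 24 and 4 in mRNA and 395 and 412 in footprints. In the ratio they fell to 0 and 0 (edgeR, 179 and 126 at an unadjusted p under 0.05). Fewer samples then estimate the spread. In RNA-seq they also include the RPS7 and controls 20 pairs, with SD of 0.482 and 0.582 against 0.0956 to 0.266 for 17 other pairs. The number range as a term gave 2439 and 2710 in mRNA and 86 and 79 in the ratio, and turned SAMD9 mRNA to 0.63. Without the libraries that stand apart, footprints had 828 and 768 against control and 59 and 110 against the other knockdowns, mRNA 79 and 208 against the other knockdowns, and the ratio 85 and 39 against control and 1 higher against the others. Without both controls 21, footprints had 2153 and 2523 against control and 868 and 763 against the others, mRNA 1770 and 835 against the others, and the ratio 40 lower against control and 8 and 6 against the others. Against all 15 other targets there were 1307 and 713 in mRNA, 661 and 557 in footprints and 3 lower ratios. Against the 5 targets numbered 13 to 20 there were 167 and 264 in mRNA and 0 higher ratios (286 at an unadjusted p under 0.05). Lower mRNA against the others came to 717 with no filter on low counts and 662 with DESeq2, lower ratios against control to 5 with no filter, and lower ratios against the others to 2 with no lysate term and 2 with limma. The cause of these shifts was not tested. The replicate block, over RPS7 1 and 2 and controls 11 and 20, left 1 and 1 in mRNA and 1450 and 1663 in footprints. With 2 numbers per group the design does not show whether they pair the libraries, and in RNA-seq RPS7 2 minus 1 and control 20_2 minus 20_1 had r = 0.762 across genes against -0.0913 with control 11, and in Ribo-seq -0.364 and 0.0333. For 168 gene values tried in 2688 combinations with a setting, 2224 kept direction and side of the threshold, 441 lost the call, 13 gained it, 9 moved and 1 reversed. The shallowest Ribo-seq library limits footprints of genes near 0.278 CPM.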

Other observations

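Zinc finger genes (symbols starting with ZNF, ZSCAN or ZKSCAN) made up 21 of the 45 genes with a higher footprint-to-mRNA ratio in RPS7 knockdown and 0 of the 12 with a lower ratio, against 399 of the 12654 genes tested (3.15%). This group was noticed after the values were seen. Its median log2 change of the ratio was 0.39 against control, with -0.09 in mRNA and 0.25 in footprints. Within the number range the median was 0.09 and 3 of these genes were called higher, and without the libraries that stand apart the median was 0.41. The mean of the group per lysate was 0.38 and 0.61 in RPS7 knockdown and -0.24 to 0.62 in controls, with 0.62 in control 20_2 and 0.18 in 20_1, so the groups overlapped. The part of the libraries that stand apart in this count was not tested.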
